A study of Mus musculus with 14 samples.

Results

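The 9 genes described here, Pmch, Hcrt, Oxt, Avp, Trh, Gal, Pomc, Cartpt and Ghrh, encode peptides made by neurons of the hypothalamus. They were taken by symbol from a list of 9 among the 23412 genes counted. The list was chosen by their RNA and footprint levels in these libraries, read as signs of tissue content, so their levels and differences are given as a description, with no p-value for any of them. The libraries came from tissue labelled mouse brain cortex: RNA-seq of total RNA from 4 control and 4 Fmr1 knock-out (KO) mice, and ribosome footprints, the pieces of mRNA that a ribosome protects while a nuclease cuts the rest, from 3 control and 3 KO mice. Controls carried Rpl22flox/flox and CamKCre+; KO mice carried the same alleles plus Fmr1X-Y. All groups therefore had a floxed Rpl22 allele and a Cre driven by a CamK promoter, which is active in forebrain excitatory neurons, and no group without them was analysed. The labels give neither the age of the mice nor where the cortex was cut from the tissue below it, and the protocols speak of brain lysates and name no pull-down of tagged ribosomes. Mice 1 to 4 entered both assays, mice 5 to 8 RNA-seq only, and mice 9 and 10 ribosome profiling only.

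Hypothalamic peptide genes are each read in small, distinct groups of neurons. Pmch (melanin-concentrating hormone) and Hcrt (hypocretin, also called orexin) mark separate neurons of the lateral hypothalamus that act on sleep, arousal and feeding, and their cell bodies are hardly found elsewhere in the brain. Oxt (oxytocin) and Avp (vasopressin) lie next to each other in the genome and are made in large neurons of the paraventricular and supraoptic nuclei that project to the posterior pituitary. Trh and Ghrh release pituitary hormones, while Pomc and Cartpt are made together in arcuate neurons that reduce feeding. Trh, Gal and Cartpt are also made outside the hypothalamus, so their RNA in a cortical sample need not come from it.

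Total counts were 8847547 to 11371851 in the RNA libraries and 4124065 to 6033030 in the footprint libraries. Fmr1, the targeted gene, stood at 82.9 ± 8.36 counts per 1000000 (CPM, scaled with TMM factors; SD, n = 4) in control RNA and 21.7 ± 2.40 (n = 4) in KO RNA, and at 113 ± 1.99 (n = 3) and 7.44 ± 1.43 (n = 3) in footprints. KO RNA libraries of mice 2, 4 and 7 were close to each other, where a chi-square test of their counts gave 1.18 to 1.32 per degree of freedom between pairs (1 being sampling noise), against 5.64 to 6.02 for pairs with KO mouse 5 and 1.99 to 11.8 among controls. The labels name them as separate mice, so all 4 were kept. Control mouse 8 and KO mouse 5 stood apart in choroid plexus RNA: the summed CPM of 9 choroid plexus markers was 288 and 124 there, against 13.4 to 24.7 and 8.71 to 12.5 in the other control and KO libraries. Fold changes below were fitted with edgeR and are log2 values of KO against control with their standard error (SE), and a gene is called at an adjusted p-value under 0.05 over all genes tested.

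Promoters of 4 genes are shown because these genes hold the widest contrasts in the group. Pmch and Hcrt differed most between genotypes, and Oxt and Avp are neighbours whose values differed from each other. Each sequence is the 250 bases before the annotated start, 5′ to 3′ on the gene's strand, from RefSeq (GRCm38.p6). Those of Pmch (chr10:88090822-88091071, plus strand), Hcrt (chr11:100762932-100763181, minus strand), Oxt (chr2:130575919-130576168, plus strand) and Avp (chr2:130582589-130582838, minus strand) are given in this order. Capitals mark matches on either strand to the motif TATAAA, to the motif TGACG and to the motif TGACC.
Pmch: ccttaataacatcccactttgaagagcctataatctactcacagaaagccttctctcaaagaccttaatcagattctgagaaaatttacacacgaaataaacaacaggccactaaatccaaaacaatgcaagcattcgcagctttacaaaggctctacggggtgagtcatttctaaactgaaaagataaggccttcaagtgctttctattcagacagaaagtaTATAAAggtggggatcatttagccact
Hcrt: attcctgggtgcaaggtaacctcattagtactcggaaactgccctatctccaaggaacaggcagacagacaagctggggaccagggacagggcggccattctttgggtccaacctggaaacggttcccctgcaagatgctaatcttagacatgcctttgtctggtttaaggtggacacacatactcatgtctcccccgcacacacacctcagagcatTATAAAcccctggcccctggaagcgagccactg
Oxt: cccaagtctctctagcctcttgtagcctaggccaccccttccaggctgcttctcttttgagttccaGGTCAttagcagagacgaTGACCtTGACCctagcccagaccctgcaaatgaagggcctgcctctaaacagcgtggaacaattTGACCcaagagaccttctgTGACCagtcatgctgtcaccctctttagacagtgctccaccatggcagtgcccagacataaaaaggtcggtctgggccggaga
Avp: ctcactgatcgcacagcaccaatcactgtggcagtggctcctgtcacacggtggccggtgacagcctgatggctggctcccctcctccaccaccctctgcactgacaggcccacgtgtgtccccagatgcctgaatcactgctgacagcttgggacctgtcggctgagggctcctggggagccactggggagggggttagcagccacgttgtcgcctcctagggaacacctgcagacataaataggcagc
TATAAA, the core of the TATA box that places the start of transcription, began 27 bases before the start of Pmch and 33 bases before that of Hcrt, and it occurred in 12.4% of all 32851 promoters of this length. Oxt held 5 matches to TGACC, the core of sites read by several nuclear receptors, which occurred in 35.2% of all promoters, and the Avp window held no match to the 3 motifs. TGACG, the core of the cAMP response element, occurred in 17.8% of all promoters and in none of these 4 windows. All 9 genes matched the table, with 10 promoters because Ghrh has a second start. Of these 10 promoters, 4 held TATAAA, 4 held the motif TGACG and 7 held the motif TGACC. In the Cartpt promoter 2 matches to TGACG overlapped on opposite strands. The windows of Pmch and Hcrt had a G+C content of 38.4% and 53.6%, and those of Oxt and Avp 54.0% and 62.4%.

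Of the lateral hypothalamic pair, Pmch was low in every KO library. In RNA it stood at 28.8, 31.0, 20.02 and 10.7 CPM in control mice 1, 3, 6 and 8, and at 2.64, 3.66, 1.28 and 2.37 CPM in KO mice 2, 4, 5 and 7. The groups did not overlap, and control mouse 8 and KO mouse 5 were the lowest libraries of their genotypes. The KO mean of 2.49 ± 0.978 CPM (SD, n = 4) was 11.0% of the control mean of 22.6 ± 9.25 (n = 4), with a log2 fold change of −3.14 (SE 0.33). Footprints gave 37.5, 30.7 and 31.9 CPM in control mice 1, 3 and 9 against 3.80, 3.14 and 3.56 in KO mice 2, 4 and 10. Here the controls lay close together, and the KO mean of 3.50 ± 0.335 CPM (n = 3) was 10.5% of the control mean of 33.4 ± 3.65 (n = 3), a log2 fold change of −3.23 (SE 0.18). In bulk tissue, fewer cells of a type and less RNA per cell cannot be told apart, for Pmch or any gene below. Pmch overlaps Parpbp in the annotation, and whether reads were assigned by strand is not given in the sources used here. Parpbp itself had 1.31 ± 0.469 CPM in control and 1.30 ± 0.312 in KO RNA (n = 4 each).

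Hcrt had the same order of groups at lower counts. Its RNA counts were 56, 51, 33 and 35 in control mice 1, 3, 6 and 8, and 4, 7, 0 and 5 in KO mice 2, 4, 5 and 7. In CPM these were 5.64, 5.29, 3.65 and 3.41 against 0.390, 0.610, 0 and 0.494. The count of 0 in KO mouse 5 had a 95% upper limit of 3.69 counts for counting error only, where 1 count is 0.116 CPM. Every KO library lay below every control library. The KO mean was 8.31% of the control mean (0.374 ± 0.265 against 4.50 ± 1.13 CPM, n = 4 each), with a log2 fold change of −3.47 (SE 0.37). Summed over libraries, 16 KO counts against 175 control counts gave 8.79% of the control level, with an exact binomial (Clopper-Pearson) 95% interval from 4.91% to 14.7% for counting error. Footprints stood at 6.84, 8.99 and 11.9 CPM in control mice 1, 3 and 9 and at 0.949, 2.02 and 1.68 CPM in KO mice 2, 4 and 10, a log2 fold change of −2.57 (SE 0.30). No KO library of either assay reached 10 counts of Hcrt, so the gene passed the filter on low counts through the controls.

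**Figure D1:**
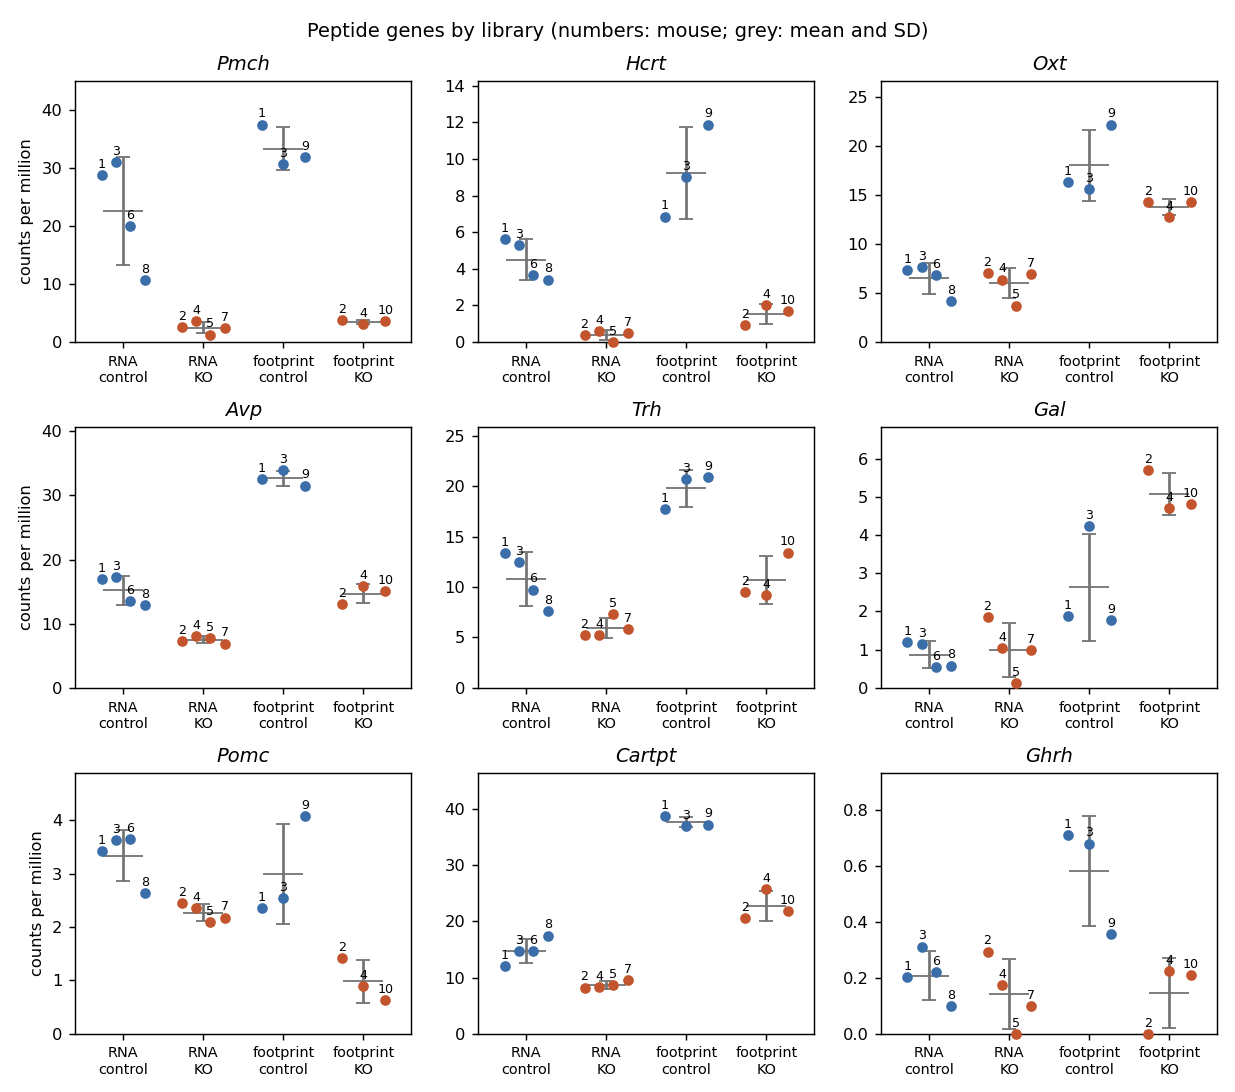
Level of each of the 9 peptide genes in CPM (y axis, from 0, own scale in each panel) in RNA and footprint libraries of control (blue) and KO (orange) mice. Points are libraries numbered by mouse, and grey lines are the mean and SD of a group. Pmch and Hcrt lie near the axis in every KO library, Oxt RNA overlaps between genotypes, and Gal footprints lie higher in KO.

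Between the 2 magnocellular hormones the values parted. Avp RNA was 17.0, 17.3, 13.5 and 13.0 CPM in control mice 1, 3, 6 and 8 and 7.32, 8.10, 7.78 and 6.92 CPM in KO mice 2, 4, 5 and 7, with no overlap and a narrow spread in KO. The KO mean was 49.6% of the control mean (7.53 ± 0.519 against 15.2 ± 2.29 CPM, n = 4 each), a log2 fold change of −1.01 (SE 0.13). Avp footprints were 32.6, 33.9 and 31.5 CPM in control mice 1, 3 and 9 and 13.0, 15.9 and 15.1 CPM in KO mice 2, 4 and 10, a log2 fold change of −1.15 (SE 0.12). The KO mean was 44.9% of the control mean in footprints (14.7 ± 1.47 against 32.7 ± 1.19 CPM, n = 3 each).

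Oxt, the next gene to Avp on the chromosome, did not separate the genotypes in RNA. It stood at 7.35, 7.67, 6.86 and 4.19 CPM in control mice 1, 3, 6 and 8 and at 7.03, 6.36, 3.72 and 6.92 CPM in KO mice 2, 4, 5 and 7. The lowest library of each genotype was the one rich in choroid plexus RNA, control mouse 8 and KO mouse 5, and the other 6 libraries lay between 6.36 and 7.67 CPM. The log2 fold change was −0.10 (SE 0.21), −0.26 without control mouse 8, 0.06 without KO mouse 5 and −0.11 without both. Oxt footprints were 16.3, 15.6 and 22.2 CPM in control mice 1, 3 and 9 and 14.2, 12.8 and 14.2 CPM in KO mice 2, 4 and 10. These groups did not overlap, with a log2 fold change of −0.40 (SE 0.15), which was −0.21 without control mouse 9, the highest of the 6. The difference between Oxt and Avp was not tested, since both were chosen with these values known.

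Of the releasing hormones, Trh was lower in KO and Ghrh was near the limit of detection. Trh RNA was 13.4, 12.4, 9.73 and 7.60 CPM in control mice 1, 3, 6 and 8 and 5.27, 5.23, 7.32 and 5.83 CPM in KO mice 2, 4, 5 and 7. The groups did not overlap, but control mouse 8 lay just above KO mouse 5. The log2 fold change of −0.88 (SE 0.18) was −1.29 within mice 1 to 4, whose library titles carry other prefixes, and −0.40 within mice 5 to 8, where Trh was no longer called. Trh footprints, 17.7, 20.7 and 20.9 CPM in control mice 1, 3 and 9 against 9.49, 9.18 and 13.4 CPM in KO mice 2, 4 and 10, gave −0.89 (SE 0.15). Ghrh had RNA counts of 2, 3, 2 and 1 in control and 3, 2, 0 and 1 in KO libraries in the same order of mice, and footprint counts of 3, 4 and 2 against 0, 1 and 1. It did not pass the filter, and no fold is given.

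Of the arcuate pair, Cartpt, which encodes the CART peptides, was lower in KO in both assays. Its RNA was 12.1, 14.7, 14.7 and 17.4 CPM in control mice 1, 3, 6 and 8 and 8.20, 8.27, 8.60 and 9.59 CPM in KO mice 2, 4, 5 and 7. Control mouse 8, the lowest control for Pmch, Hcrt, Oxt, Avp, Trh and Pomc, was the highest for Cartpt. The log2 fold change was −0.77 (SE 0.12), and KO RNA was 58.8% of the control mean. Footprints, 38.7, 37.0 and 37.2 CPM in control mice 1, 3 and 9 against 20.6, 25.8 and 21.8 CPM in KO mice 2, 4 and 10, gave −0.72 (SE 0.11) and 60.4%.

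Pomc, the precursor of melanocortins and beta-endorphin, differed less in RNA than in footprints, at low counts. Its RNA was 3.42, 3.63, 3.65 and 2.63 CPM in control mice 1, 3, 6 and 8 and 2.44, 2.35, 2.09 and 2.17 CPM in KO mice 2, 4, 5 and 7, so that control mouse 8 lay just above the highest KO library. The log2 fold change was −0.55 (SE 0.19). Footprint counts were 10, 15 and 23 in control mice 1, 3 and 9 and 6, 4 and 3 in KO mice 2, 4 and 10, a log2 fold change of −1.63 (SE 0.45). With fewer than 10 footprints in each KO library, Pomc passed that filter through the controls.

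Gal, which encodes galanin, was the one peptide gene of the 9 that stood higher in KO footprints. These were 1.89, 4.24 and 1.77 CPM in control mice 1, 3 and 9 and 5.69, 4.70 and 4.82 CPM in KO mice 2, 4 and 10. Control mouse 3 lay just under the KO group. The log2 fold change was 0.89 (SE 0.31), 1.46 without control mouse 3 and 0.63 without control mouse 9. Gal RNA was 1.21, 1.14, 0.553 and 0.585 CPM in control mice 1, 3, 6 and 8 and 1.85, 1.05, 0.116 and 0.988 CPM in KO mice 2, 4, 5 and 7. These groups overlapped, and the log2 fold change of 0.24 (SE 0.48) turned to −0.21 without KO mouse 2, the highest library.

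Counted over the group, 5 of the 8 peptide genes tested in RNA were called lower in KO (Pmch, Hcrt, Avp, Trh and Cartpt) and 0 higher. Over all genes 3.88% were called lower and 3.53% higher. In footprints 7 of 8 were called lower and 1, Gal, higher, where 13.6% and 11.9% of all genes were, and Gal groups did not overlap, as for 18.1% of all genes with KO higher. RNA groups did not overlap, with KO lower, for 6 of the 9 genes (the 5 called and Pomc), against 7.97% of all genes tested. For footprints this held for 8 of 9, Ghrh with at most 4 counts included, against 19.2%. Since the genes were chosen with these contrasts known, nothing is read from the counts. Libraries bear on them: with the near-identical KO mice 2, 4 and 7 summed into 1 sample, 3 were called in RNA (Pmch, Hcrt and Avp), and 4 within mice 5 to 8 (those and Cartpt). Without control mouse 9, 5 were called in footprints (Pmch, Hcrt, Avp, Trh and Cartpt). With 1 footprint library left out in turn, the Oxt call was lost without mouse 2, 4, 9 or 10. The Gal call was lost without mouse 1, 2, 4 or 9, and the Pomc call without mouse 9. DESeq2 called 4 in footprints (Pmch, Avp, Trh and Cartpt), did not call Oxt, and gave no adjusted p for Hcrt, Gal and Pomc. Calls over all genes also fell with the KO mice summed, within mice 5 to 8 and by DESeq2 in footprints. The shares of all genes above therefore do not apply to the counts at these settings. Leaving out control mouse 8 and KO mouse 5 together gave log2 fold changes in RNA of −3.18 for Pmch, −3.25 for Hcrt, −1.09 for Avp, −1.13 for Trh, −0.61 for Pomc and −0.67 for Cartpt.

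**Figure D2:**
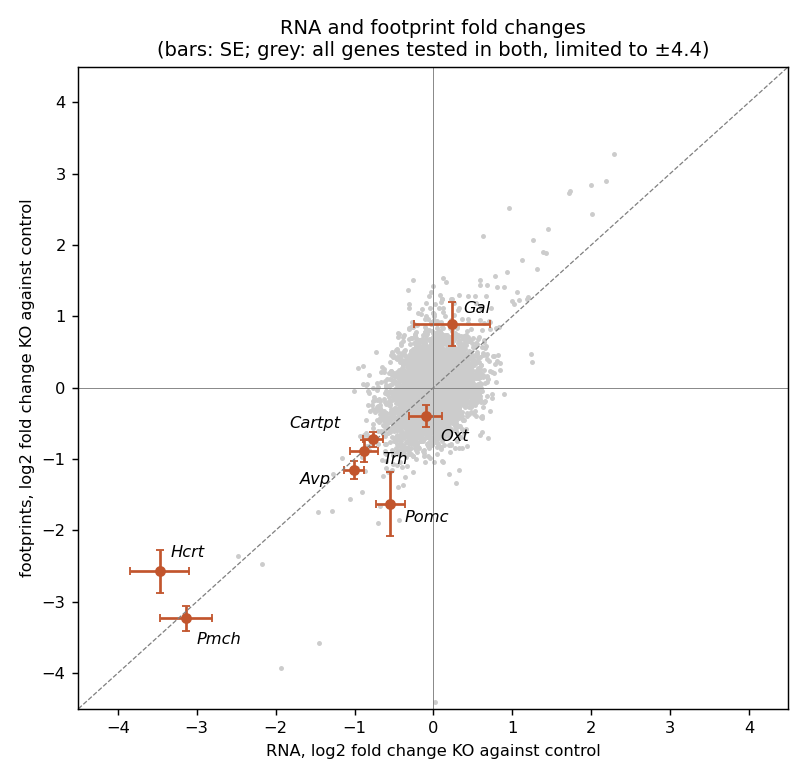
Log2 fold change of KO against control in RNA (x axis) and footprints (y axis). Orange points with SE bars are the 8 peptide genes tested in both assays, grey points are all genes tested in both, and the dashed line marks equal change. Pmch, Avp, Trh and Cartpt lie on or near the line, Hcrt above it, and Pomc below it.

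RNA and footprints can be set against each other as translational efficiency (TE), the footprint level relative to the RNA level, taken as the interaction of genotype and assay over all 14 libraries. The log2 TE difference (KO minus control) was −0.12 (SE 0.57) for Pmch, −0.15 (SE 0.18) for Avp, −0.01 (SE 0.28) for Trh and 0.04 (SE 0.16) for Cartpt. For these 4 genes the difference was smaller than its SE. It was 0.87 (SE 0.61) for Hcrt, −0.31 (SE 0.29) for Oxt, 0.65 (SE 0.63) for Gal and −1.10 (SE 0.45) for Pomc, and the last became −0.54 when the mouse was kept as a replicate block. By edgeR 0 of the 8 genes were called in TE, where 7.81% of all 12145 genes were. DESeq2 called 0 and gave no adjusted p for 5. The genes were chosen by the RNA and footprint values that make up TE, so nothing is read from these counts. In the 4 mice with both assays, the ratio of footprint to RNA CPM for Avp was 1.91 and 1.96 in control mice 1 and 3 and 1.78 and 1.96 in KO mice 2 and 4. The genotypes overlapped for Avp. For Oxt the ratio was 2.215 and 2.035 in control mice 1 and 3 and 2.025 and 2.008 in KO mice 2 and 4, so that control mouse 3 lay just above KO mouse 2.

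The deposited table gives each RNA library in 2 columns, one without a suffix, used above, and one marked exon. Avp had the same count in both columns in every library (100%), and Oxt had 90.6% and Pomc 85.3% of its exon count in the column without a suffix. Hcrt had 74.9%, Pmch 67.3%, Gal 64.4%, Trh 63.7% and Cartpt 57.0%, where the median of all genes tested was 65.6%. The region that each column covers is not stated. The exon columns gave log2 fold changes of −3.27 (SE 0.30) for Pmch, −3.49 (SE 0.37) for Hcrt, −0.99 (SE 0.12) for Avp, −0.06 (SE 0.22) for Oxt, −0.85 (SE 0.13) for Trh, −0.47 (SE 0.18) for Pomc and −0.71 (SE 0.12) for Cartpt. The choice of column therefore moved none of these by more than its SE.

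**Figure D3:**
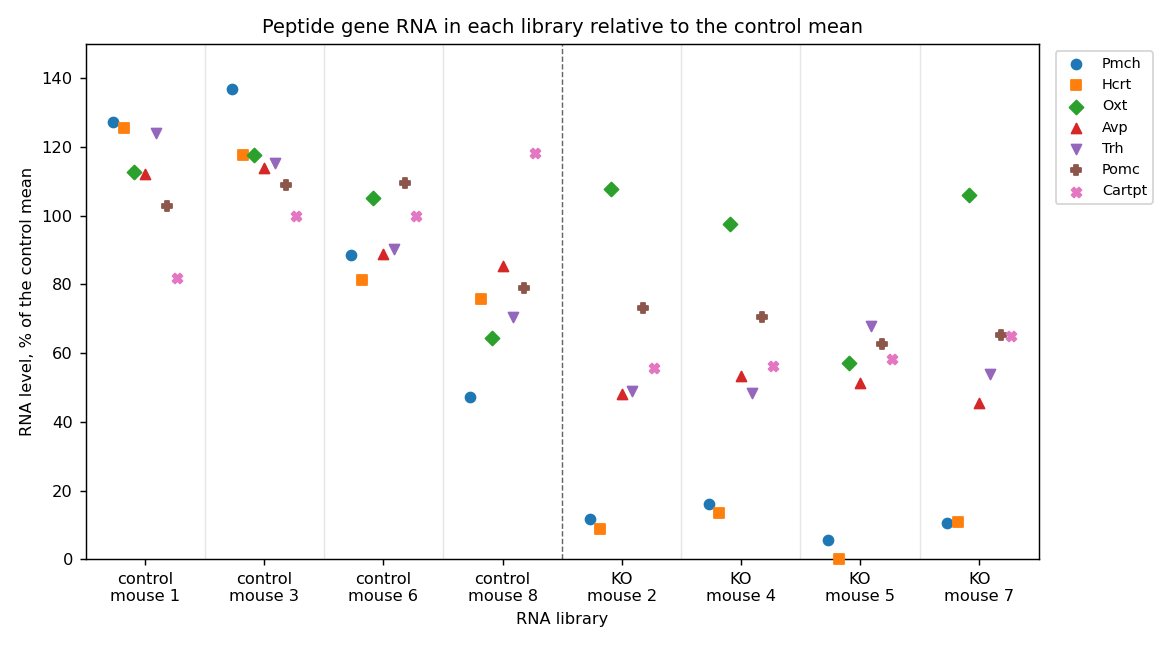
RNA level of 7 peptide genes in each of the 8 RNA libraries as a percentage of the gene's control mean (y axis, from 0). Each column of points is 1 library; Gal and Ghrh are left out for their low counts. Pmch spans 47.4% to 137% among the controls, and Oxt is low in control mouse 8 and KO mouse 5.

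Across the 8 RNA libraries the genes varied alike in part and to different degrees. Among controls, Pmch, Hcrt, Oxt, Avp and Trh stood highest in mice 1 and 3 and lowest in mouse 8. Pomc was also lowest in control mouse 8, while Cartpt was highest there. Among KO mice, mouse 5 was lowest for Pmch, Hcrt, Oxt and Pomc but highest for Trh. Relative to its control mean, Pmch ran from 47.4% to 137% among controls and from 5.65% to 16.2% among KO mice, whereas Avp ran from 85.3% to 114% and from 45.5% to 53.3%. The genes whose log2 level was most like each one over the 8 RNA libraries, among the 13440 genes whose mean reached 1 CPM, are given by Pearson's r as a description. The libraries share genotype and depth, which enter every r. Pmch was most like Ccdc174 (0.994), Aqp4, the water channel of astrocytes (0.993), and Ddc, the enzyme that makes dopamine and serotonin from their precursors (0.992). Hcrt was most like Aqp4 (0.990), Ddc (0.988) and Ppp1r9b (0.986). Avp was most like Prpf31 (0.992), Wdfy1 (0.992) and Ece2, a peptide-cleaving enzyme (0.991). Oxt gave Rttn (0.975), Nes, the intermediate filament nestin (0.970), and Poln (0.961). Trh was like Tubb2b (0.988) and Psmb7 (0.987), Pomc like Ap1s2 (0.992), Sync (0.979) and Nek10 (0.975), and Cartpt like Trmt10a (0.985), Rps28 (0.983) and Ndufc2 (0.982).

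Of 17 receptor genes of these peptides, 9 could be tested in RNA, and 1 fell and 0 rose, where 3.88% of all genes fell and 3.53% rose. Trhr, the receptor of TRH, fell from 8.01 ± 1.11 to 4.94 ± 1.22 CPM (n = 4 each), a log2 fold change of −0.71 (SE 0.17; edgeR adjusted p = 0.0215). It was no longer called without control mouse 1 or 6 or KO mouse 2, 4 or 7, each left out in turn (edgeR adjusted p from 0.0511 to 0.0832), nor with KO mice 2, 4 and 7 summed (0.201) or within mice 5 to 8 (0.320). The receptors of the 2 lateral hypothalamic peptides did not pass: Mchr1 had a log2 fold change in RNA of −0.07 (SE 0.10; edgeR adjusted p = 0.746), Hcrtr1 −0.17 (SE 0.21; 0.686) and Hcrtr2 0.38 (SE 0.17; 0.178). Nor did Oxtr at −0.41 (SE 0.18; 0.191), Galr1 at −0.87 (SE 0.29; 0.0840) or Mc4r at −0.04 (SE 0.20; 0.935), and Avpr1a was too low to test. Oxtr was called lower in RNA without KO mouse 5, in the exon columns, in mice 1 to 4 and without control mouse 8 and KO mouse 5, and Galr1 without KO mouse 2. In footprints 5 receptors were tested and 0 called by edgeR (0 at an unadjusted p under 0.05, and 0 by DESeq2, which gave 3 no adjusted p), where 13.6% of all genes fell and 11.9% rose, and Galr1 was called lower without control mouse 9. The median log2 fold change of the receptors tested was −0.17 in RNA and −0.07 in footprints, against −0.00 and 0.01 for all genes.

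Peptide precursors are cut and packed in secretory granules by enzymes and granule proteins that neurons of many kinds use. Of 16 such genes, all tested, 7 fell and 1 rose in RNA, and 7 fell and 3 rose in footprints, with medians of −0.17 and −0.11. Of all genes tested, 3.88% fell and 3.53% rose in RNA, and 13.6% fell and 11.9% rose in footprints. The RNA count changed when most single libraries were left out. Without control mouse 8 the count was 8 lower and 4 higher (Pcsk1n, Cpe, Scg3 and Furin). Without KO mouse 2 or KO mouse 4 only Chga was called. Without control mouse 1, 3 or 6 or KO mouse 7 there were 2 to 5 lower and 0 higher calls. Without KO mouse 5 the count stayed at 7 lower and 1 higher. With the prefix of the library titles kept as a block, it was 6 lower and 2 higher (Pcsk1n and Furin). The granins Chga (log2 fold change −0.35, SE 0.06; edgeR adjusted p = 0.00481) and Scg2 (−0.24, SE 0.06; 0.0212) fell in RNA, as did Pam, which amidates peptide ends (−0.27, SE 0.06; 0.0160), and Qpct, which forms their pyroglutamate ends (−0.34, SE 0.09; 0.0326). Furin, a precursor-cutting protease, rose (0.48, SE 0.13; 0.0443). In footprints Chga (−0.34, SE 0.03), Chgb (−0.33, SE 0.02), Vgf (−0.16, SE 0.03) and Scg2 (−0.16, SE 0.03) fell. Scg3 (0.36, SE 0.03), the carboxypeptidase Cpe (0.16, SE 0.02) and the protease Ctsl (0.11, SE 0.04, edgeR adjusted p = 0.0202) rose there. In RNA Ctsl was called lower (−0.18, SE 0.05, edgeR adjusted p = 0.0456). Among fits without 1 library, the RNA call of Ctsl held only without control mouse 8. In TE Ctsl was called higher (0.28, edgeR adjusted p = 0.0143), but not without mouse 1, 2 or 4. Qpct was not called in footprints (0.14, SE 0.10). It was called higher in TE (0.47, edgeR adjusted p = 0.0365), but not without mouse 1, 2, 3, 6 or 10. The proteases Pcsk1 and Pcsk2 were not called in either assay, with log2 fold changes between −0.06 and 0.03. Of the RNA calls, Chga held in each fit without 1 library. With KO mice 2, 4 and 7 summed, the RNA calls of Chga, Scg2, Pam, Qpct and Furin were lost (edgeR adjusted p from 0.114 for Chga to 0.286 for Furin). Their log2 fold changes there were −0.35, −0.22, −0.22, −0.36 and 0.43. Within mice 5 to 8 these calls were lost as well (edgeR adjusted p from 0.242 for Scg2 to 0.650 for Furin). The log2 fold changes there were −0.23, −0.26, −0.19, −0.37 and 0.18, in the same order. Qpct was also lost in mice 1 to 4 (0.0532). Furin was not called in the exon columns either (0.36; 0.0862). Qpct was lost without mouse 1, 2, 4 or 6 (edgeR adjusted p 0.0716 to 0.111), Pam without mouse 2, 4, 6 or 7 (0.0559 to 0.0713), Scg2 without mouse 2, 4 or 7 (0.0662 to 0.0832) and Furin without mouse 1, 2, 3, 4, 6 or 7 (0.0846 to 0.125). Ctsl was lost in footprints without mouse 1, 2, 4 or 9 (0.0554 to 0.0927) and by DESeq2.

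Several other neuropeptides are made by cortical interneurons as well. Of 27 genes, 15 were tested in RNA, of which 1 fell and 0 rose, and 14 in footprints, of which 0 fell and 6 rose. The shares over all genes were 3.88% and 3.53% in RNA and 13.6% and 11.9% in footprints. Without control mouse 8 the RNA count was 1 lower and 4 higher (Npy, Sst, Penk and Pdyn), as it was without control mouse 8 and KO mouse 5, and in mice 1 to 4 it was 1 lower and 6 higher. Their medians were −0.07 and 0.19. The RNA call was Nts, neurotensin, at −0.33 (SE 0.09; edgeR adjusted p = 0.0454), lost without mouse 1, 2, 3, 4, 6 or 7 (0.0568 to 0.137), with KO mice 2, 4 and 7 summed (0.276), within mice 5 to 8 (0.567) and in the exon columns (0.0622). The Nts call was also lost with the prefix of the library titles (mice 1 and 2, 3 and 4, and 5 to 8 in RNA) kept as a block (edgeR adjusted p = 0.0582), with no filter (0.0540) and by DESeq2 (0.0730). In footprints, on the log2 scale, Npy rose by 0.47 (SE 0.04; edgeR adjusted p = 1.37e-16), Tac1 by 0.38 (SE 0.07; 3.62e-06), Cck by 0.36 (SE 0.03; 6.89e-16) and Penk by 0.31 (SE 0.03; 1.65e-16). These 4 held in each fit without 1 library. Agrp, made in arcuate neurons beside those of Pomc, was too low to test (0.329 ± 0.164 CPM in control and 0.149 ± 0.0560 in KO RNA, n = 4 each).

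Markers of the hypothalamus as a tissue were measured beside the peptide genes. Of 43 genes, 22 were tested in RNA, with 5 lower and 0 higher calls, where 3.88% and 3.53% of all genes were called. In footprints 21 were tested, with 8 lower and 0 higher calls (6 lower by DESeq2, which gave 9 no adjusted p), where 13.6% and 11.9% of all genes were called. Without KO mouse 4 the RNA count was 3, and without control mouse 1 Calcr was called higher in footprints. The log2 fold change was negative for 17 of 22 and 16 of 21, with medians of −0.32 and −0.39. Hap1, a trafficking protein rich in hypothalamic neurons, fell in RNA (−0.62, SE 0.07; edgeR adjusted p = 0.000339) and in footprints (−0.92, SE 0.05). Ddc (−0.76, SE 0.11; 0.00108), the neuronal globin Ngb (−0.66, SE 0.17; 0.0267) and the receptor Gpr101 (−0.50, SE 0.11; 0.0167) also fell in RNA. Gpr101 (−0.75, SE 0.13), the insulin receptor substrate Irs4 (−0.89, SE 0.22) and Magel2, a gene of the Prader-Willi region (−0.85, SE 0.29; edgeR adjusted p = 0.0191), fell in footprints. Hap1 and Ddc held in RNA without any 1 library. Ngb was lost without mouse 2, 3, 4, 6 or 7 (edgeR adjusted p 0.0701 to 0.0922), Gpr101 RNA without mouse 1 or 4 (0.0558 to 0.0706) and Magel2 footprints without mouse 1, 4, 9 or 10 (0.0541 to 0.0770). Ddc (edgeR adjusted p = 0.106), Ngb (0.170) and Gpr101 (0.485) were not called within mice 5 to 8 alone, where Hap1 was (0.0387). With KO mice 2, 4 and 7 summed Ngb (0.186) and Gpr101 (0.119) were lost, and Ngb also in mice 1 to 4 (0.102).

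The summed level of the 43 markers was 718 to 767 CPM in control and 601 to 617 CPM in KO RNA. The KO mean was 81.0% of the control mean. In footprints the sum was 1201 to 1234 against 977 to 1003 CPM (80.9%). Ndn, the most abundant of the 43, stood at 230 CPM in control and 221 CPM in KO RNA (log2 fold change −0.06). In footprints Ndn stood at 487 and 445 CPM (−0.13). The sums therefore weigh a few abundant genes most. The 9 peptide genes summed to 59.6 to 93.5 CPM in control and 30.9 to 35.8 CPM in KO RNA, and to 154 to 162 against 69.3 to 75.4 CPM in footprints. Hap1 and Zcchc12, a zinc finger gene of the list that was also called lower in both assays, made up 63.4% of the drop in RNA and 57.2% of that in footprints; without these 2 genes, picked after their values were seen, the sum was 460 to 475 against 399 to 429 CPM in RNA (88.9%) and 867 to 888 against 770 to 792 CPM in footprints (88.7%). The Zcchc12 call in RNA (−0.48; edgeR adjusted p = 0.00268) was lost with KO mice 2, 4 and 7 summed (0.102) and within mice 5 to 8 (0.232). Of the 23 transcription factors in the list, 19 had a mean under 1 CPM in RNA in both genotypes, among them Nkx2-1, which marks the ventral hypothalamus, and Otp, needed for Oxt, Avp and Trh neurons. Sox14 had no RNA or footprint count, and Rax, Hmx2 and Barhl1 had no footprint count. The 4 factors tested did not pass in either assay. Isl1, found in arcuate neurons, was at 4.84 CPM in control and 3.20 CPM in KO RNA, with no overlap and a log2 fold change of −0.60 (SE 0.18; edgeR adjusted p = 0.0561). Nkx2-2 had a log2 fold change in RNA of 0.01 (SE 0.23), Six3 0.36 (SE 0.21) and Lhx8 0.02 (SE 0.18). Fezf1 was at 0.926 CPM in control and 0.236 CPM in KO RNA without overlap and did not pass the filter. In the exon columns Fezf1 was called lower (−1.75, edgeR adjusted p = 0.0186). Its footprints, at 0.425 CPM in control and 0.507 CPM in KO, overlapped and did not pass the filter. The part of tissue content in the peptide differences was not tested.

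**Figure D4:**
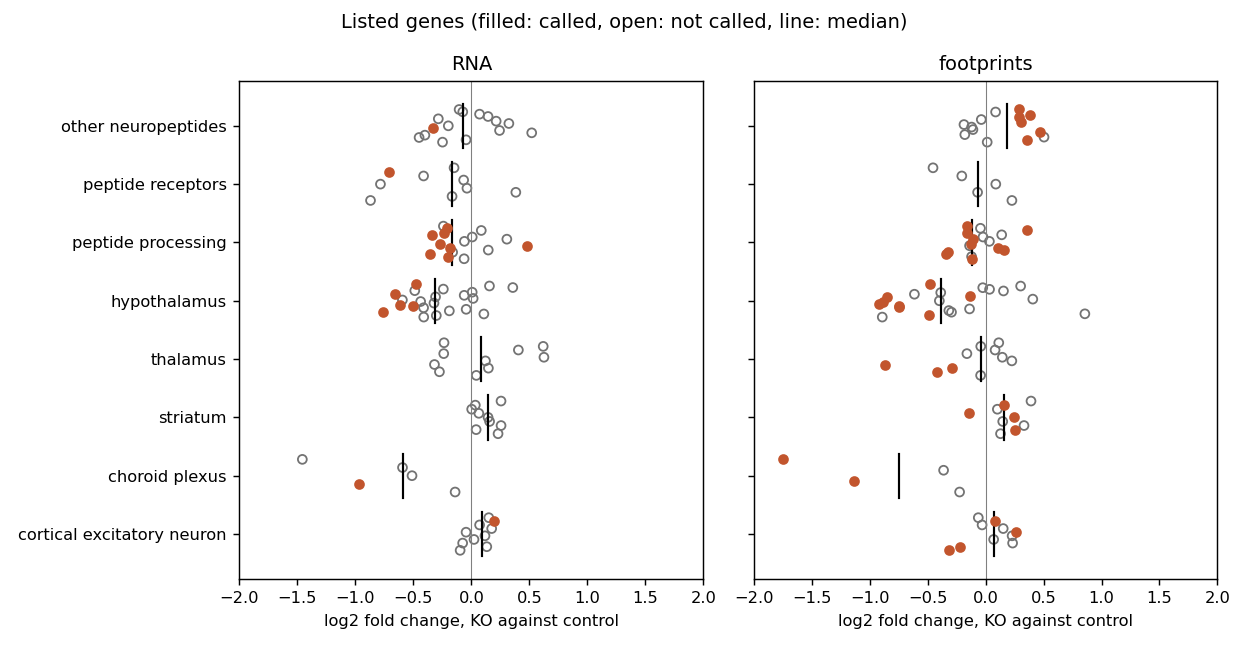
Log2 fold change of KO against control (x axis) for the tested genes of 8 lists (rows) in RNA (left) and footprints (right). Filled points were called by edgeR, open points were not, and black lines are list medians. Hypothalamic markers have medians of −0.32 and −0.39, and other neuropeptides have 6 genes called higher in footprints.

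Markers of other tissue next to the cortex gave these values, where 3.88% of all genes were called lower and 3.53% higher in RNA, and 13.6% and 11.9% in footprints. Of 11 thalamic markers, 10 were tested. By edgeR 0 were called in RNA (5 at an unadjusted p under 0.05, and 1 by DESeq2) and 3 were lower in footprints (1 by DESeq2, which gave 1 no adjusted p), and their summed RNA level was 158 to 165 CPM in control and 145 to 165 CPM in KO. The thalamic footprint sum was 182 to 214 CPM in control and 172 to 180 CPM in KO. Of 9 striatal markers, 0 were called in RNA by edgeR (1 at an unadjusted p under 0.05, 0 by DESeq2), and 1 was lower and 3 higher in footprints (1 and 1 by DESeq2), with summed RNA of 491 to 576 against 560 to 576 CPM. Choroid plexus markers had 1 lower call of 5 tested in RNA and 2 of 4 in footprints (0 by DESeq2, which gave none of the 4 an adjusted p), and their footprint sum was 18.8 to 22.9 CPM in control and 10.7 to 15.9 CPM in KO. Of 5 ependymal markers, 4 were tested in RNA with 1 lower call, and 3 in footprints with 0 by edgeR (0 at an unadjusted p under 0.05, and 0 by DESeq2). The 9 markers of the anterior pituitary, which also makes Pomc, summed to at most 0.332 CPM in control and 0.581 CPM in KO RNA, and Prl and Fshb were at 0. The 10 markers of cortical excitatory neurons summed to 2001 to 2163 CPM in control and 2293 to 2381 CPM in KO RNA, with 0 lower and 1 higher call, and to 1550.0 to 1575 against 1589 to 1641 CPM in footprints, with 2 lower (Bcl11b and Cux2) and 2 higher calls (Slc17a7 and Neurod6), of which DESeq2 did not call Cux2.

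Many of these calls changed when 1 library was left out. In RNA, thalamic markers had 2 lower calls (Ntng1 and Slc17a6) and 1 higher (Tcf7l2) without KO mouse 5, 1 lower and 1 higher without control mouse 8, and 2 lower in the exon columns. In footprints only Prkcd was called of the thalamic markers without control mouse 1 or KO mouse 10. Striatal markers had 2 higher calls in RNA (Drd2 and Adora2a) without control mouse 8, and in footprints the 3 higher calls were lost without KO mouse 4. The choroid plexus call in RNA, Kcnj13, was lost without mouse 2, 3, 4, 6 or 7 and in the exon columns, while both footprint calls (Ttr and Kcnj13) held in each fit without 1 library. The ependymal call, Ccdc153, was lost without control mouse 1 or KO mouse 7. The cortical call in RNA, Slc17a7, was lost without mouse 1, 2, 3, 4, 6 or 7 and in the exon columns, and without control mouse 8 Tbr1 was called as well. In footprints Cux2 was lost without mouse 2, 3, 9 or 10 and Slc17a7 without mouse 3 or 4, while Bcl11b and Neurod6 held in each fit without 1 library. With KO mice 2, 4 and 7 summed, or within mice 5 to 8, 0 markers of these tissues were called in RNA. The part of these tissues in the peptide differences was not tested.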

How the data were processed

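RNA-seq (8 libraries) and ribosome profiling (6 libraries) were analysed from 1 table of whole-number counts per gene that the authors deposited, with no normalization. The submitters' processing notes list Bowtie2, STAR 2.5, featureCounts, Subread 1.4.6 and the builds mm9 and mm10, without their roles. The region and strand counted are not given in the sources used here. Footprint values, and RNA values outside the exon columns, are missing for 2849 genes, and a spreadsheet had turned 27 names into dates. Totals per exon column were 16351772 to 20793293.

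Counts were tested by genotype with edgeR 4.0.16 (R 4.3.3; quasi-likelihood F test, TMM, filterByExpr at a minimum count of 10, two-sided), RNA and footprints apart, and TE as the interaction of genotype and assay. The Benjamini-Hochberg adjustment ran over every gene tested, with a threshold of 0.05. The procedure was tested on simulated data, with no outcome given here. DESeq2 1.42.0, other normalization and filters, blocks and leaving out each library were alternatives. Summing KO mice 2, 4 and 7, splitting the mice, and leaving out control mouse 8 and KO mouse 5 together were chosen after seeing the data or with earlier results of these data known. Likeness used log2 of CPM plus 0.5, and 1 gene it named is not reported here. Motifs were counted on both strands.

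The members and the gene lists were chosen with earlier results of these data known. From the 4 lists of peptides, receptors, processing genes and hypothalamic markers, the called genes with the largest change are named. Up to 4 are named per direction and assay, plus the main receptors. Pcsk1, Pcsk2, Agrp, Zcchc12, Ndn, the cortical markers and the transcription factors were chosen after their values were seen.

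The mouse numbers, given in the labels, pair RNA and footprint libraries of mice 1 to 4, the same animals. The deviations of a mouse's 2 libraries from their group means correlated at 0.0031, 0.011, 0.034 and −0.013 over 12145 genes.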

Additional observations from a re-analysis of the deposited data

Results flagged for a closer look

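Control mouse 8 stood far above the other control RNA libraries in the summed level of the choroid plexus markers (288 CPM against 13.4 to 24.7), and KO mouse 5 stood far above the other KO libraries (124 CPM against 8.71 to 12.5). The gap to the next library was 0.959 and 0.967 of the whole range of the group. Most of it was Ttr, the transthyretin of choroid plexus epithelium, at 263 CPM in control mouse 8 and 104 CPM in KO mouse 5. Of 38 groups of values examined, these 2 stood out, where chance alone flags about 1 in 20. The same libraries held the lowest Pmch, Hcrt, Oxt and Pomc of their genotypes in RNA, but not the lowest Cartpt.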

How the results depend on the processing

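Over all genes, 1001 were called in RNA, between 356 and 1763 with each library left out in turn, 79 with KO mice 2, 4 and 7 summed, 88 in mice 5 to 8, 3273 in mice 1 to 4 and 3063 without control mouse 8 and KO mouse 5. The same settings gave, for the 15 calls among the listed peptides, receptors, processing genes and hypothalamic markers, 4 to 25, 2, 1, 28 and 28. Calls among the 9 peptide genes in RNA were 5, or 5 to 6 with a library left out, 3 with the KO mice summed and 4 in mice 5 to 8, where Trh was lost. In footprints 3102 genes were called, or 1821 by DESeq2. For the peptide genes 8 were called, or 4 by DESeq2 (with 3 not given an adjusted p) and 5 to 8 with a library left out. TE calls were 949, or 1812 with the mouse as a replicate block and 417 to 1286 with a mouse left out. Listed TE calls were 2 (Ctsl and Qpct), or 6 with no filter and 4 by DESeq2. They were 8 with the mouse as a replicate block and 0 to 6 with a mouse left out. The block changed no call of a peptide gene. The cause of these shifts was not tested. Fits on fewer mice went both ways in RNA, with 3273 calls in mice 1 to 4 and 88 in mice 5 to 8. Of 335 recomputed fold changes and TE differences of the peptide genes, 331 moved by less than 1 SD. The other 4 were Trh RNA in both subsets of mice (−1.29 and −0.40), Gal footprints without control mouse 3 (1.46) and Pomc TE with the replicate block (−0.54). Some of the 331 still moved by more than the SE of the main fit. Oxt footprints went from −0.40 (SE 0.15) to −0.21 without control mouse 9. Trh footprints went from −0.89 (SE 0.15) to −1.09 without KO mouse 10. Avp RNA went from −1.01 (SE 0.13) to −0.85 within mice 5 to 8. The sign changed in at least 1 setting for Oxt and Gal RNA and for TE of Pmch, Trh and Cartpt. Of the 11 RNA and 15 footprint calls named from the lists by size of change, 3 and 13 held without each library in turn, and 10 and 14 by DESeq2. Zcchc12, Ndn and the RNA call of Ctsl are not among these calls. Depth limits Ghrh, Hcrt in KO, Gal RNA and Pomc footprints.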
